A study of Mus musculus with 4 samples.

Results

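The early growth response genes Egr1, Egr2 and Egr3, the orphan nuclear receptor gene Nr4a1 and the Krüppel-like factor genes Klf2, Klf4 and Klf6 were followed in single mouse haematopoietic stem cells (HSCs). They are 7 of the 13742 genes in the count table, taken by name, and all 7 rows were found. The cells came from bone marrow of wild-type mice aged 8 weeks and were sorted as ESLAM SK HSCs, a lineage-negative population that carries Sca-1, Kit, CD150 and CD201 and lacks CD48. Both a CD27+ and a CD27- gate were used, and the labels name both gates for each of the 4 libraries. No label ties a cell to its gate, so cells are compared here by their Cd27 transcript count and never by gate. Nothing in the labels ties the 4 libraries, numbered 1 to 4, to separate mice. Every p-value below therefore measures how steady a difference between classes of cells is across libraries, whose spread may be technical. There is 1 group, with no treated or mutant cells. RNA was measured by STRT-seq, in which each cell's cDNA is barcoded in its own tube before pooling.

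Of 297 cells, 292 had at least 10000 counts and 1000 detected genes and were kept, with 74, 75, 71 and 72 cells in libraries 1 to 4. Their counts summed to between 5250569 and 11207442 per library, and single cells held 10653 to 346876. The HSC identity list had all of its 25 genes detected, summing to 11221 ± 758 CPM (counts scaled to a common library total; mean ± SD over 4 libraries). Among lists for mature cells, low sums were found for B cells (104 ± 7.94 CPM) and for T and NK cells (82.8 ± 44.7 CPM). Macrophage genes had 25.7 ± 11.8 CPM and neutrophil genes 126 ± 41.0 CPM. The mast and basophil list had 1 of its 8 genes in the table, at 0.0675 CPM. Other lineage lists were far higher. Erythroid genes reached 3109 ± 524 CPM, of which Car2 held 2692 CPM. Genes of platelets and their precursors reached 2009 ± 58.7 CPM, and myeloid genes 1816 ± 84.9 CPM. Whether cells other than HSCs contributed to these sums was not tested. Endothelial genes, several of which HSCs also express, summed to 585 ± 102 CPM. A set of 15 cells with neighbouring numbers in libraries 2 and 4 stood apart from the rest, and leaving them out moved the mean level of Klf2 to 509 CPM, against 501 CPM with all cells, and that of Klf6 to 1160 CPM, against 1144 CPM. The table names cells by library and number and carries no barcode sequence.

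EGR proteins are zinc-finger transcription factors of the immediate early class: their genes are switched on within minutes of a growth factor or stress signal, through MAP kinases and serum response factor, without new protein synthesis. NR4A1 is a nuclear receptor without a known physiological ligand whose activity is set mainly by how much of it is made, and cAMP signalling through CREB is a classic inducer of its gene. Krüppel-like factors bind GC-rich DNA: KLF2 maintains quiescence in T cells and responds to MEF2 factors, KLF4 is one of the reprogramming factors and supports monocyte formation, and KLF6 is needed for early blood formation in the mouse embryo. In mice, loss of Egr1 is known to raise HSC division and mobilization, and NR4A receptors restrain HSC division. Genes of the immediate early class are also known to rise while cells are being isolated from tissue, and all cells here went through isolation and sorting; its part in the levels was not tested.

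The bases upstream of the starts of Nr4a1, Klf2, Klf4 and Klf6 are shown because the levels of these genes are compared across cells below. The RefSeq promoter table (build GRCm38.p6) holds windows for 5 of the 7 genes, and the 4 genes with a single window on a printable chromosome are given, 5′ to 3′ on the gene's own strand, ending before the first annotated exon base. Capitals mark CRE half-sites (TGACG), AP-1 sites (TGANTCA), EGR sites (GCGTGGGCG), GC boxes (GGGCGG), CArG boxes and MEF2 sites (both by their AT-rich consensus), each searched on both strands over the 250 bases before the start. The windows are Nr4a1 at chr15:101266596-101266845 on the plus strand, Klf2 at chr8:72318812-72319032 on the plus strand, Klf4 at chr4:55532476-55532725 on the minus strand and Klf6 at chr13:5861239-5861481 on the plus strand.
Nr4a1: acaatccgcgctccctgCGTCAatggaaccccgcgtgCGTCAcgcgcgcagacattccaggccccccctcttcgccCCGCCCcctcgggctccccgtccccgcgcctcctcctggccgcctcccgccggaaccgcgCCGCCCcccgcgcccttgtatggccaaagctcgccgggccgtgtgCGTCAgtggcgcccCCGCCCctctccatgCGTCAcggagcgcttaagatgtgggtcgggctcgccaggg
Klf2: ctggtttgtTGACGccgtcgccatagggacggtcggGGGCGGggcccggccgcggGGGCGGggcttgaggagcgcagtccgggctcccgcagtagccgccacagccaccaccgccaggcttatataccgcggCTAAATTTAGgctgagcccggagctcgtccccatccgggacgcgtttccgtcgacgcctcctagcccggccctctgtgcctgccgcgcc
Klf4: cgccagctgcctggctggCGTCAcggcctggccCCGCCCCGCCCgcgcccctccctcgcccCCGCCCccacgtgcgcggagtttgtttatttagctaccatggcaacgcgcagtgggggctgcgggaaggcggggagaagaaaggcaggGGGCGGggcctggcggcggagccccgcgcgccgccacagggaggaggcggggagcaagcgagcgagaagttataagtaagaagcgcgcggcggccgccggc
Klf6: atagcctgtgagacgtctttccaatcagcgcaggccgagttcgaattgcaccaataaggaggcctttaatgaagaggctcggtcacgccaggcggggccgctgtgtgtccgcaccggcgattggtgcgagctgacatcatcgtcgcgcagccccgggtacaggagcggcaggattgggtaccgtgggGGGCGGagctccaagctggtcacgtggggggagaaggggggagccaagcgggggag
The Nr4a1 window held 4 CRE half-sites and 3 GC boxes, and it lies inside the longer GENCODE model of the gene. The Klf2 window held 1 CRE half-site, 2 GC boxes and 1 MEF2 site. The Klf4 window held 1 CRE half-site and 4 GC boxes, of which a pair overlapped by 1 base, and the Klf6 window held 1 GC box. No other matches overlapped. AP-1, EGR and CArG letters did not occur in these 4 windows. Over all 32851 windows of that length, 17.77% held a CRE half-site, 32.74% a GC box, 6.75% an AP-1 site, 0.54% an EGR site, 1.47% a CArG box and 0.51% a MEF2 site.

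Egr1, Klf2 and Klf6 were found in most HSCs, Nr4a1 and Klf4 in a minority, and Egr2 and Egr3 in almost none. A library's level is the CPM of the summed counts of its kept cells, and the plot of levels by library shows the spread of the 4 values. Klf6 (GRCm38 13:5861482-5870394, plus strand; gene positions are those of GENCODE M21) had 1235, 1225, 977 and 1140 CPM in libraries 1 to 4 (1144 ± 119, SD, n = 4), and 278 of 292 cells held at least 1 count. Library 3 was the lowest. Klf2 (8:72319033-72321656, plus strand) had 517, 491, 482 and 512 CPM (501 ± 16.8, SD, n = 4), with 227 positive cells. Its level varied least among the genes, relative to its mean. Egr1 (18:34859823-34864984, plus strand) had 442, 467, 435 and 500 CPM (461 ± 29.6, SD, n = 4), with 256 positive cells. All 4 values lay close together. Nr4a1 (15:101254269-101274795, plus strand) had 70.4, 92.5, 92.8 and 109.7 CPM (91.3 ± 16.1, SD, n = 4), with 116 positive cells. Klf4 (4:55527143-55532466, minus strand) had 82.2, 86.6, 61.3 and 92.1 CPM (80.6 ± 13.4, SD, n = 4), with 103 positive cells. Library 3 was again the lowest. Egr3 (14:70077203-70082614, plus strand) had 1.21, 9.52, 6.86 and 0.446 CPM (4.51 ± 4.40, SD, n = 4), from 127 counts in 8 cells. Egr2 (10:67535475-67542188, plus strand) had 13 counts in 1 cell of library 3, which put that library at 2.48 CPM and the other libraries at 0.

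**Figure D1:**
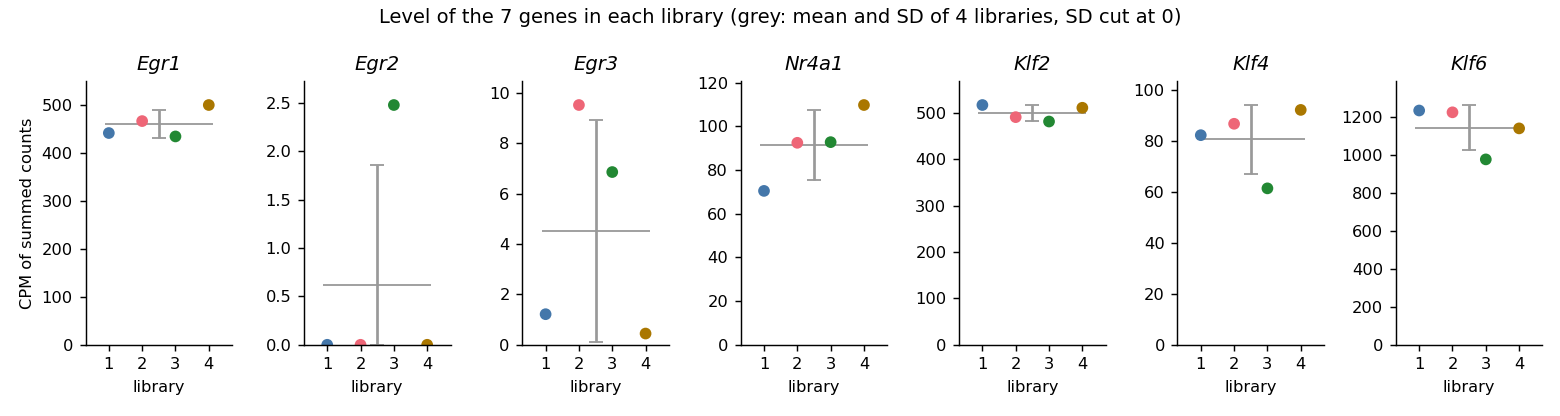
Level of each of the 7 genes in libraries 1 to 4, as CPM of the summed counts of kept cells (points; each panel has its own axis from 0, and grey shows the mean and SD, cut off at 0). Klf6 lies between 977 and 1235 CPM and Klf2 between 482 and 517 CPM, while Egr2 is above 0 in library 3 alone.

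Genes are compared with each other per kilobase of merged exons, since longer transcripts can give more counts; the libraries enrich 3′ ends, so this scale may overcorrect. On it Klf2 (271 ± 9.07 CPM per kb, SD, n = 4) and Klf6 (261 ± 27.2 CPM per kb) came first and overlapped. Egr1 followed at 103 ± 6.61 CPM per kb, apart from both. Klf4 (26.4 ± 4.41 CPM per kb) and Nr4a1 (26 ± 4.59 CPM per kb) overlapped, as did Egr3 (1.02 ± 0.998 CPM per kb) and Egr2 (0.18 CPM per kb), the last 2 in the order. The AP-1 genes Fos (1932 CPM per kb) and Jun (1360 CPM per kb), whose proteins form the dimeric AP-1 factor, were well above all members, and Cd27 lay at 81.0 CPM per kb.

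The share of positive cells followed the same division. Klf6 was detected in 95.2% ± 3.58 of cells per library (SD, n = 4), Egr1 in 87.6% ± 3.71 and Klf2 in 77.8% ± 7.49. Nr4a1 was detected in 39.7% ± 9.26, with the lowest share in library 3 (28.2%, exact 95% interval 18.1 to 40.1%) and the highest in library 4 (50%, 38.0 to 62.0%). The median count of Nr4a1-positive cells was 8.5, 2, 21 and 1.5 in libraries 1 to 4. Many positive cells in libraries 2 and 4 were therefore near the floor. Klf4 was detected in 35.3% ± 5.12, lowest in library 3 (29.6%, 19.3 to 41.6%) and highest in library 4 (41.7%, 30.2 to 53.9%). Library 3 was also the shallowest, with a median of 65416 counts per cell, and library 4 the deepest, with 142675. With every cell thinned at random to 30000 counts, which 276 cells reached, the shares fell to 79.3% for Egr1, 67.0% for Klf2, 28.5% for Nr4a1 and 25.6% for Klf4, so part of each share is depth. Intervals cover counting error only. In libraries 1, 2 and 4, 0 cells held Egr2, which allows shares of up to 4.05%, 4.00% and 4.17% (3 cells of the total); this limits cells with a detected count, not cells that express the gene.

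Cells differed widely in how much they held, as the plot of single cells shows. Medians are over all 292 kept cells, those at 0 included, unless positive cells are named. Klf6 had a median of 715 CPM per cell and a highest value of 6755 CPM, Egr1 a median of 284 and a highest value of 3956 CPM, and Klf2 a median of 246 and a highest value of 3591 CPM. Among positive cells the medians were 768 CPM for Klf6, 410 CPM for Klf2 and 351 CPM for Egr1. Those for Klf4 and Nr4a1 were 129 and 65.1 CPM. For these 3 genes the 30 cells with the most counts carried 41.4% (Klf6), 43.5% (Egr1) and 45.3% (Klf2) of the gene's counts. Nr4a1 and Klf4, with 116 and 103 positive cells, were more concentrated, which their many cells at 0 add to. Their medians over all cells were 0, their highest values 1802 and 3613 CPM, and the top 30 cells carried 81.7% and 79.1% of the counts. Cd27, with a median of 43.8 CPM, had 49.1% in its top 30 cells.

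**Figure D2:**
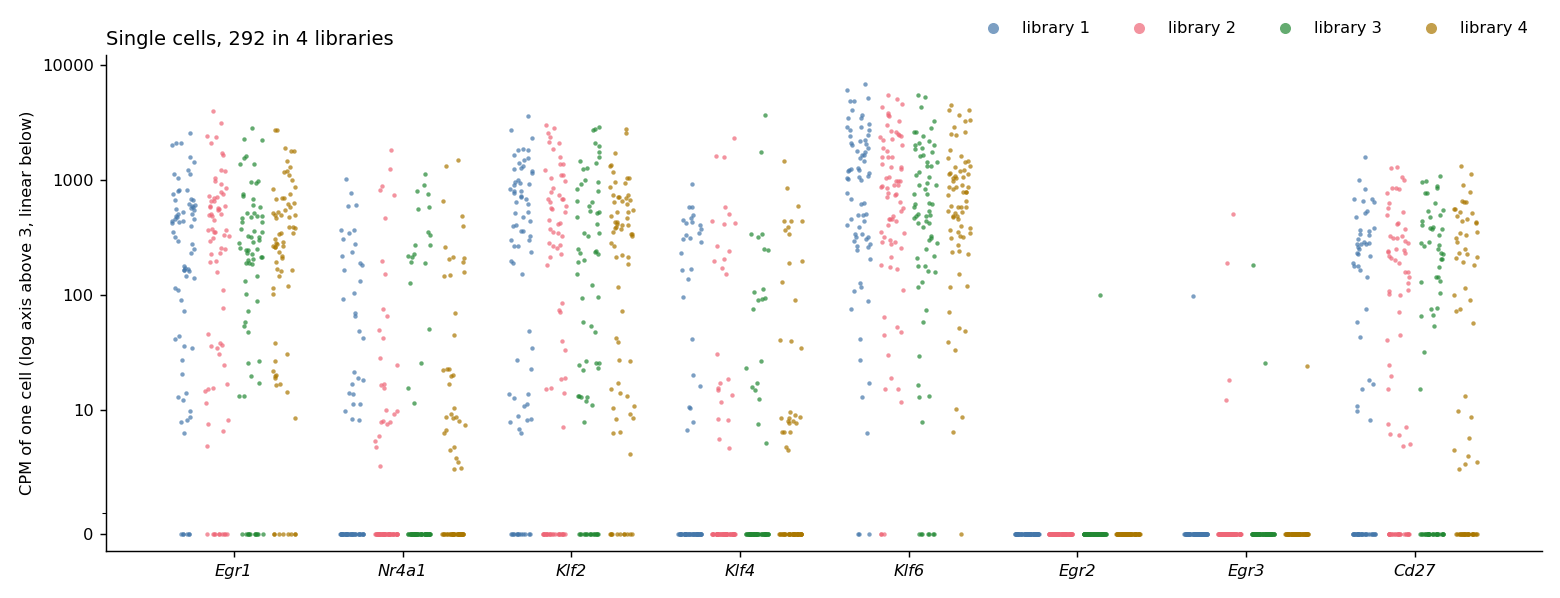
CPM of each gene in each of the 292 kept cells, coloured by library (vertical axis logarithmic above 3 CPM and linear below). Cells spread from 0 to 6755 CPM for Klf6, most cells are at 0 for Nr4a1 and Klf4, and Egr2 has 1 positive cell.

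The few cells with Egr2 or Egr3, zinc-finger relatives of Egr1 studied mainly in nerve and lymphocytes, held other members too. The Egr2 cell had 13 Egr2 counts beside 67 of Egr1, 35 of Nr4a1, 62 of Klf2 and 259 of Klf6, and 0 of Klf4 and Cd27. All 8 Egr3 cells also held Egr1 and Klf6, 7 held Klf2, 5 Klf4, 4 Nr4a1 and 4 Cd27. Their Egr3 counts were 41, 34, 1 and 1 in library 2, 35 and 1 in library 3, 9 in library 1 and 5 in library 4. The 3 cells with more than 30 Egr3 counts held 141 to 255 counts of Egr1 and 37 to 268 of Nr4a1. Since Egr1 and Klf6 are found in most HSCs, co-detection with them in 8 of 8 cells is near the 6.94 and 7.59 cells that independent detection inside libraries gives.

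Detection of the 5 common genes overlapped more than independent detection would give. Among the 276 thinned cells, Nr4a1 and Klf4 were found together in 30 cells, where independent detection inside libraries gives 20.7, with more than the independent number in 3 of 4 libraries. Klf2 and Klf4 were found together in 58 cells against 47.7, above in 4 of 4 libraries, and Egr1 and Klf2 in 165 against 147, also in 4 of 4. All 5 genes were detected in 25 thinned cells, 4 of them in 64, 3 in 98, 2 in 51, 1 in 31 and none in 7. The median number of genes detected at full depth was 3268 in the cells with all 5 and 2574 in those with none, and its part in the overlap was not tested. Cd27 was detected in 28.0% of the 25 cells with all 5 genes and in 48.4%, 56.1%, 66.7%, 58.1% and 42.9% of those with 4, 3, 2, 1 and none. By library, Cd27 was found in 2 of 10 cells with all 5 genes in library 1, 1 of 6 in library 2, 3 of 4 in library 3 and 1 of 5 in library 4.

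Levels of the 5 genes were positively correlated across cells. Spearman's rho was computed within each library on thinned counts and averaged over the 4 libraries; cells of a library share its preparation, so rho describes these libraries and carries no p. Klf2 and Klf6 had the highest rho of any pair, at 0.60, 0.56, 0.61 and 0.51 in libraries 1 to 4 (mean 0.57). Egr1 had 0.47 with Klf2 and 0.44 with Klf6. Klf4 had 0.35 with Klf6 and 0.32 with Klf2, and Nr4a1 had 0.33 with Klf6 and 0.31 with Klf2. The lowest mean was between Nr4a1 and Klf4, at 0.17, where library 1 had 0.43 and library 4 had -0.01. With Fos, rho was 0.60 for Klf6, 0.52 for Klf2, 0.47 for Egr1, 0.34 for Klf4 and 0.33 for Nr4a1.

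The genes most like each member were other early-response genes. The 3678 genes compared were those found in 20% or more of the thinned cells in each library. The 5 closest to Egr1 by mean rho were Klf2, Fos, Klf6, the mRNA-decay factor gene Zfp36 (0.42) and the MAP kinase phosphatase gene Dusp1 (0.41). Klf2 was closest to Klf6, Fos, Zfp36 (0.50), Dusp1 (0.50) and Ppp1r15a (0.49), which encodes a phosphatase subunit of the stress response. Klf6 was closest to Fos, Klf2, Ppp1r15a (0.55) and the early-response gene Ier2 (0.53). Nr4a1 and Klf4 shared Hes1, a repressor known as a Notch target, as their closest gene, at 0.41 and 0.35. Nr4a1 was followed by the histone gene H3f3b (0.36), Klf6 and Fos, and Klf4 by Klf6, Fos, Klf2 and Ier2 (0.27). The background is near 0: the median rho over all genes rounded to 0.00 for each member, and its 95% quantile was 0.11 to 0.12. At the other end, ribosomal protein genes recurred. Rps9 was among the 3 lowest for Egr1 (-0.24), Klf2 (-0.30) and Klf4 (-0.23). For Klf6, Rps20 (-0.26) and Rps3a1 (-0.25) followed Ndufa2 (-0.27), a nuclear gene for a mitochondrial protein. Low values were also found for Clic1 with Egr1 (-0.23), for Stmn1 (-0.26) and Snrpb2 (-0.23) with Klf2, and for Ifitm2 (-0.26) and Cct5 (-0.21) with Klf4. For Nr4a1 the lowest were Pdk3 (-0.21), Sh3bgrl3 (-0.21) and Tmsb10 (-0.20).

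The Klf6, Klf2 and Cd27 levels also changed with a cell's number in its library. The protocol describes sorting into strips of 8 tubes, and cells were therefore also described in runs of 8 consecutive numbers; this grouping was chosen after the data were seen, and no label says which cell numbers shared a strip or a gate. Runs accounted for 42.0% of the rank variance of Cd27 within libraries (mean of 4), the highest of 3679 genes, for 35.4% of that of Klf6 (rank 3) and for 28.5% of that of Klf2 (rank 13). Egr1 had 21.1%, Nr4a1 19.3% and Klf4 16.1%, against a median of 14.8% over all genes. In library 2, Klf6 was 288 CPM in its lowest run of at least 4 cells and 2552 CPM in its highest, with a median of 817 CPM over 10 runs. In library 1 the run of numbers 1 to 8 had 4205 CPM of Klf6 and 969 CPM of Klf2 with 2.32 CPM of Cd27, while the next run had 272 CPM of Klf6, 149 CPM of Klf2 and 273 CPM of Cd27. In library 4 the run of numbers 25 to 32 had 2858 CPM of Klf6, 1747 CPM of Klf2 and 0 counts of Cd27. Libraries 2, 3 and 4 held runs that did not follow this. In library 3, numbers 73 to 80 had 576 CPM of Cd27 together with 746 CPM of Egr1. Both were the library's highest among its 10 runs of at least 4 cells. Numbers 89 to 96 of library 3 had 439 CPM of Cd27 with 1849 CPM of Klf6. In library 2, numbers 17 to 24 had 341 CPM of Cd27 with 1746 CPM of Klf6. Numbers 73 to 80 of library 2 had 402 CPM of Cd27 with 1271 CPM of Klf6. In library 4, numbers 33 to 40 had its highest Cd27, 399 CPM, with 1155 CPM of Klf6 (run median 1022 CPM). Inside runs, with ranks centred on each run, the members remained positively correlated with each other on average: Klf2 and Klf6 had a mean rho of 0.41, Egr1 and Klf2 0.35, Egr1 and Klf6 0.32, and Klf6 and Fos 0.53. The plot of rank correlations shows these values beside those over all cells.

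**Figure D3:**
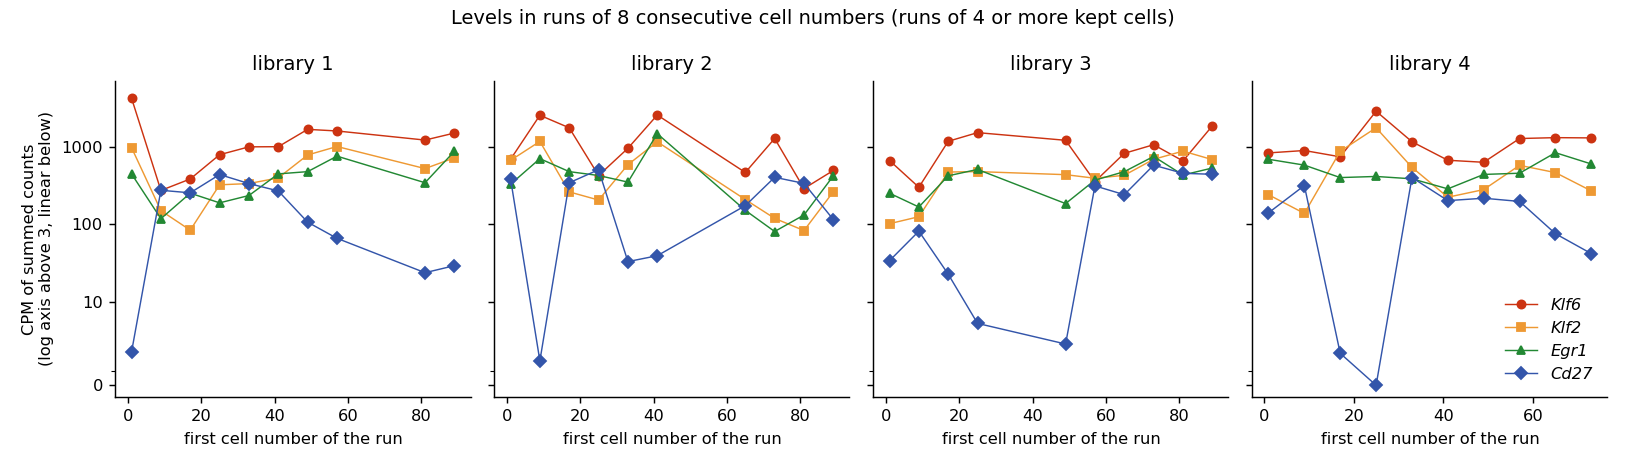
CPM of the summed counts of each run of 8 consecutive cell numbers, along the cell number in each library, for the genes named in the panels. In library 1 the first run is at 4205 CPM of Klf6 and 2.32 CPM of Cd27, and the second at 272 and 273 CPM.

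**Figure D4:**
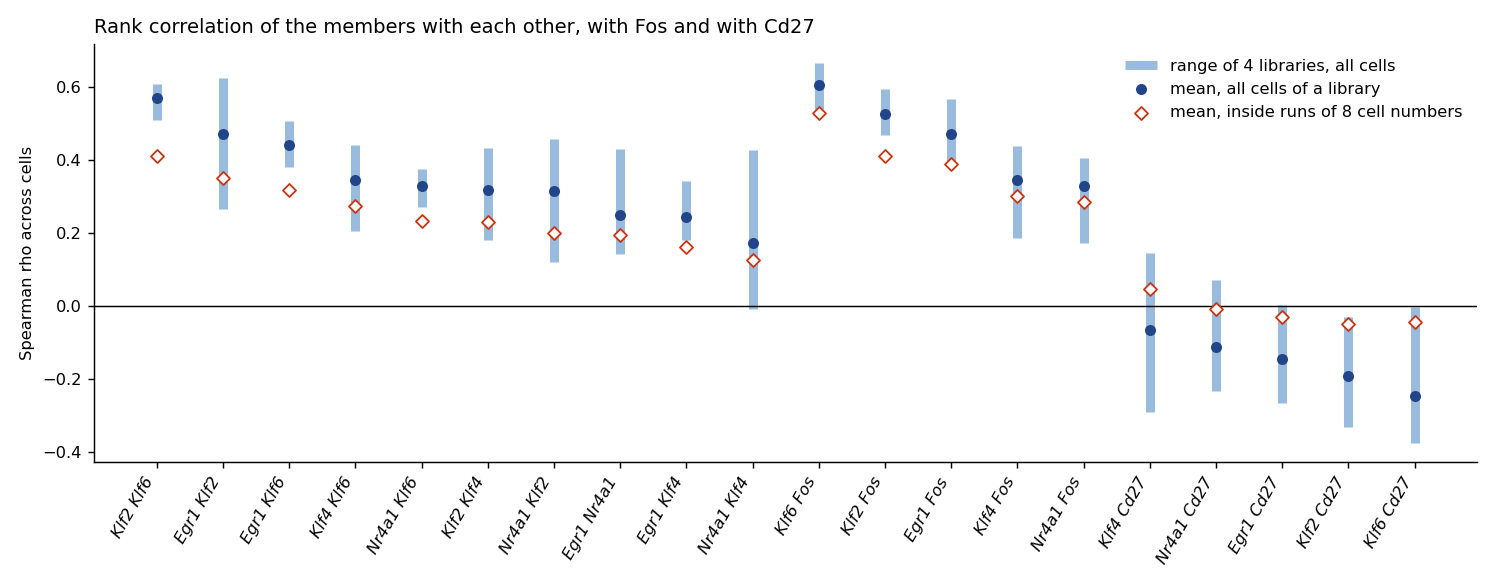
Spearman's rho across thinned cells for pairs of members and for members with Fos and Cd27 (filled points, mean of 4 libraries; bars, range of the libraries; open diamonds, mean inside runs of 8 cell numbers). Pairs of members have means between 0.17 and 0.57 over all cells, and those with Cd27 lie between -0.25 and -0.07, moving to between -0.05 and 0.05 inside runs.

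The study sorted HSCs by the receptor CD27, a TNF receptor family member found on lymphocytes and many blood progenitors, so the members were compared between cells with and without Cd27 transcript. Klf6 was lower in cells with Cd27 and was the only member that passed the test. Thinned counts were summed per library over the 148 cells with at least 1 Cd27 count and over the 128 cells with none, and the sums were compared with edgeR's quasi-likelihood test, with library as a block and Benjamini-Hochberg adjustment over all genes tested. Klf6 had 763, 784, 866 and 715 CPM in cells with Cd27, against 2004, 1953, 1148 and 1387 CPM in cells without, in libraries 1 to 4. Each library's value with Cd27 was below all 4 values without. The log2 fold change was -1.02 (SE 0.14, adjusted p = 0.00149 by edgeR), with 7 of 8489 genes (0.0825%) called, Klf6 sharing the smallest adjusted p with Cyr61, Clu and Apoe; 3 genes were called without library 1 and 14 without library 2 or library 4. The call was lost without library 1 (log2 -0.90, edgeR adjusted p = 0.0737), at full depth (-0.78, edgeR adjusted p = 0.0787) and with cells matched inside runs (61 cells a class; 857 against 1033 CPM, -0.20, edgeR adjusted p = 1.00).

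The other members did not pass. Klf2 had 303, 307, 454 and 374 CPM in cells with Cd27, against 891, 843, 557 and 494 CPM in cells without. It was lower in 4 of 4 libraries, at a log2 fold change of -0.93 (SE 0.20, edgeR adjusted p = 0.111). Egr1 had 363, 324, 420 and 478 CPM with Cd27, against 625, 912, 389 and 517 CPM without (log2 -0.57, SE 0.21, edgeR adjusted p = 0.810); library 3 went the other way. Nr4a1 had 34.0, 30.8, 94.5 and 71.4 CPM with Cd27, against 98.7, 190, 87.4 and 92.1 CPM without (log2 -1.08, SE 0.41, edgeR adjusted p = 0.824), again with library 3 the other way. Klf4 had 60.6, 28.3, 76.4 and 108 CPM with Cd27, against 162, 290, 36.8 and 67.0 CPM without, lower in 2 of 4 libraries (log2 -0.72, SE 0.54, edgeR adjusted p = 0.991). Egr2 and Egr3 were too rare to pass the filter on low counts. Rank correlation across cells gave mean rho with Cd27 of -0.25 for Klf6, -0.19 for Klf2, -0.15 for Egr1, -0.11 for Nr4a1 and -0.07 for Klf4; for Klf6 the libraries had -0.38, -0.34, -0.00 and -0.27. Inside runs these means were -0.04, -0.05, -0.03, -0.01 and 0.05. Whether the gate, the strip or another step set apart the runs was not tested.

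The other 6 genes called between cells with and without Cd27 were also lower with Cd27, and 0 were higher (213 genes had an unadjusted p under 0.05 in that direction, and DESeq2 called 8). They were the matricellular immediate early gene Cyr61 (0.230 CPM with, 60.4 CPM without), the carbonic anhydrase gene Car1 (3.09 and 71.1 CPM), the chaperone gene Clu (16.8 and 116 CPM), the receptor-modifying gene Ramp2 (30.5 and 119 CPM), Ppp1r15a (784 and 1398 CPM) and the apolipoprotein gene Apoe (1215 and 2104 CPM). Car1 had 0 CPM in library 2 both with and without Cd27, so its difference came from libraries 1, 3 and 4. Over the alternative settings listed below in which each was tested, Ramp2 passed in 6 of 12 and Car1 in 6 of 10. Cyr61 passed in 9 of 11, Clu in 10 of 12, and Ppp1r15a and Apoe in 9 of 12 each. Of the AP-1 list 0 of 9 tested genes passed, and of the other immediate early genes 2 of 30, Cyr61 and Ppp1r15a. The median log2 fold change was -0.38 over the AP-1 list and -0.32 over the other immediate early genes, against 0.02 over all genes. Of the remaining Egr, Nr4a and Klf family, 6 of 16 genes were tested and 0 passed. The family's most abundant gene there, the TGF-beta early gene Klf10 (271 ± 12.8 CPM over libraries), had 251 CPM with Cd27 and 276 CPM without.

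Cells high in one member were then set against cells low in it, to see which genes moved with each. A cell was high when its thinned count exceeded its library's median, or, for Nr4a1 and Klf4, whose medians were 0, when it held at least 1 count. At least 3 thinned counts were held by 46 cells for Nr4a1 and 54 for Klf4. Egr2 and Egr3, with 1 and 7 thinned cells, could not be split. In all 5 splits every gene that passed was higher in the high cells: 16 of 8506 genes for Egr1 (0.188%; 129 high and 147 low cells), 18 of 8534 for Nr4a1 (0.211%; 79 and 197 cells), 19 of 8513 for Klf2 (0.223%; 136 and 140 cells), 6 of 8547 for Klf4 (0.0702%; 71 and 205 cells) and 23 of 8483 for Klf6 (0.271%; 137 and 139 cells). The count of lower genes was 0 by edgeR in each, with 192, 226, 184, 211 and 175 genes lower at an unadjusted p under 0.05, and DESeq2 called 1 lower gene for Egr1 and 2 for each of the others. Leaving out 1 library moved the count by over 1.5 times in 3 splits: to 10 for Egr1 without library 1 or library 2, to 12 for Klf2 without library 1, and to 2, 0 and 11 for Klf4 without libraries 1, 2 and 3. The median log2 fold change of all genes lay between -0.12 (Klf4) and 0.00 (Klf6).

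Most pairs of members differed in the same direction in these splits, and in the reported fits Nr4a1 passed in none of the splits on another member. Of 20 ordered pairs of a split gene and another member, all 20 had a positive log2 fold change, 18 were higher in 4 of 4 libraries and 13 passed, with log2 fold changes of 0.93 to 2.60 among those that passed; 8 passed without library 1. Each pair of genes is counted from both sides in the same cells, so the 20 are not separate results. Over all genes, positive fold changes numbered 4166 of 8506 for Egr1, 3625 of 8534 for Nr4a1 and 4222 of 8513 for Klf2. They numbered 3441 of 8547 for Klf4 and 4243 of 8483 for Klf6. How many of all genes were higher in 4 of 4 libraries was not counted. Klf2 and Klf6 passed in all 4 splits on another member. In cells high in Klf6, Klf2 had 1048, 798, 838 and 648 CPM, against 152, 254, 172 and 231 CPM in cells low in Klf6 (log2 2.05, SE 0.20, edgeR adjusted p = 2.53e-05); the classes did not overlap. In cells high in Klf2, Klf6 had 2186, 1873, 1632 and 1423 CPM, against 596, 680, 399 and 655 CPM in cells low in Klf2 (log2 1.62, SE 0.14, edgeR adjusted p = 5.63e-06). Those classes were also apart.

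Klf4 passed in 3 of its 4 splits. It had 180, 265, 95.1 and 142 CPM in cells high in Klf2, against 44.6, 11.2, 24.3 and 30.8 CPM in cells low in Klf2 (log2 2.60, SE 0.41, edgeR adjusted p = 0.00557). In cells high in Egr1 it had 170, 268, 95.6 and 149 CPM, against 51.7, 25.5, 27.0 and 34.5 CPM in cells low in Egr1 (log2 2.25, edgeR adjusted p = 0.00625). It did not pass between cells with and without Nr4a1, where it had 208, 223, 35.5 and 65.2 CPM against 59.8, 105, 65.6 and 95.2 CPM, higher in libraries 1 and 2 and lower in 3 and 4.

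Egr1 passed in the splits on Klf2 and Klf6. It had 760, 855, 598 and 702 CPM in cells high in Klf6, against 233, 275, 219 and 304 CPM in cells low in Klf6 (log2 1.50, SE 0.15, edgeR adjusted p = 3.51e-05), with no overlap. Between cells with and without Nr4a1 it had 628, 631, 759 and 599 CPM against 421, 532, 286 and 447 CPM (log2 0.66, edgeR adjusted p = 0.409). Nr4a1 passed in none of the other members' splits as reported, although its fitted differences were large. Of 12 alternative settings of the processing, listed below, it passed in 4 for Egr1, 4 for Klf6, 1 for Klf2 and 0 for Klf4. In cells high in Egr1 it had 103, 204, 183 and 93.5 CPM, against 29.1, 7.03, 13.5 and 70.9 CPM in cells low in Egr1 (log2 2.56, SE 0.58, edgeR adjusted p = 0.189).

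**Figure D5:**
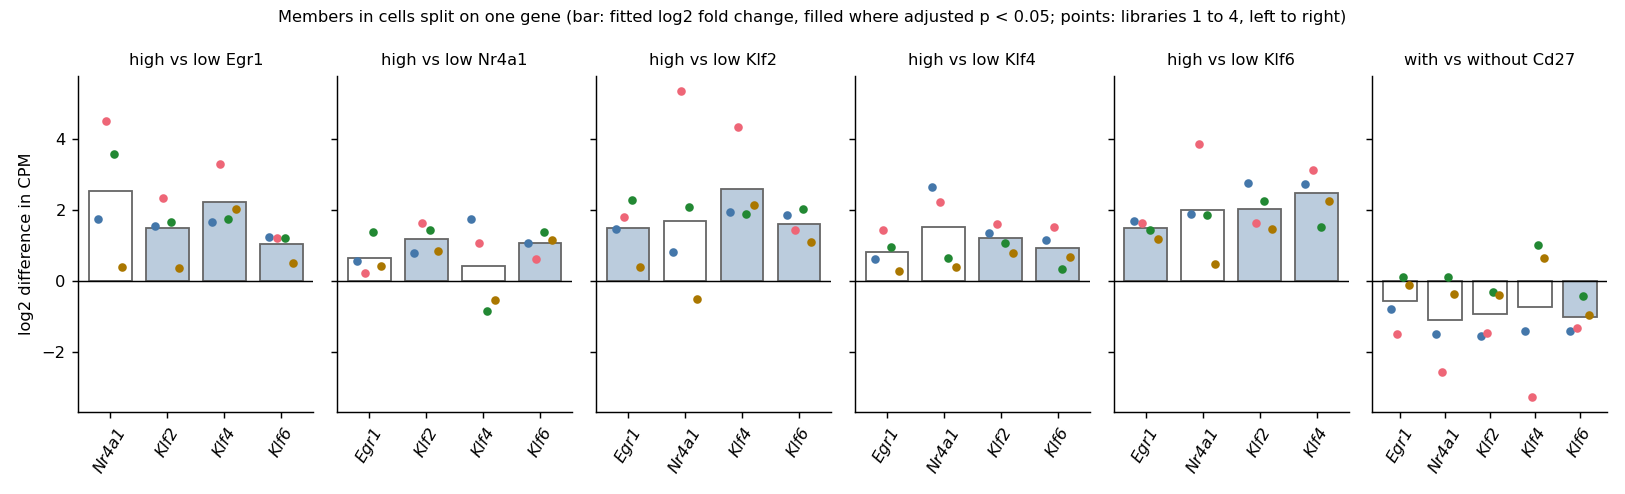
Log2 difference of each member, high minus low cells (or with minus without Cd27), in splits on the gene named above each panel; bars are fitted values, filled where the adjusted p was under 0.05, and points are libraries 1 to 4. All bars between members are above 0, and with Cd27 the bars are below 0 and filled for Klf6 alone.

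The genes that rose with the members were largely shared between splits, which use the same cells. In all, 30 genes passed in at least 1 split, and 18 of them belong to the members or to the AP-1, immediate early and heat shock lists. In the Klf6 split these lists held 4, 9, 30 and 9 of the 8483 genes tested. The lists were chosen with earlier results of these data known, so the overlap with them is not independent evidence. Fos, Hes1 and Ppp1r15a passed in all 5. Fos had 6897 CPM on average in cells high in Klf6 and 2549.8 CPM in cells low in it (log2 1.44, edgeR adjusted p = 2.06e-08), and Hes1 had 632 and 98.1 CPM (log2 2.76, edgeR adjusted p = 3.51e-05). Genes that passed in 4 splits included Klf2 and Klf6 themselves, the AP-1 genes Jun and Junb, the antiproliferative gene Btg2, the chaperone gene Dnajb1, and Dusp1, Ier2, Zfp36 and H3f3b. Btg2 passed in 4 of 12 alternative settings for Egr1, 9 of 12 for Nr4a1 and 11 of 12 for Klf2 and Klf6 each. In the Nr4a1 split the stress factor gene Atf3 (204 CPM with Nr4a1, 47.2 CPM without), the early-response gene Ier3 (320 and 108 CPM) and the chaperone gene Dnajb9 (482 and 198 CPM) passed; they passed in no other split, a difference that was not tested. In the Klf2 split the methyltransferase gene Setd7 (63.0 CPM high, 6.96 CPM low) and the kinase gene Plk2 (121 and 27.7 CPM) passed, and in the Klf6 split Cyr61 (57.8 and 0.260 CPM) and the cell-cycle regulator gene Rgcc (119 and 11.8 CPM). In alternative settings Setd7 and Plk2 each passed in 6 of 12, Rgcc in 8 of 12 and Cyr61 in 10 of 11. The small GTPase gene Rhob passed for Klf6 (395 and 132 CPM) and Klf2 (379 and 149 CPM).

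By list, AP-1 genes passed in 3 of 9 tested for Egr1, 4 of 9 for Nr4a1, Klf2 and Klf6 each, and 1 of 9 for Klf4. Other immediate early genes passed in 6 of 31, 6 of 31, 6 of 29, 3 of 31 and 7 of 30 tested for Egr1, Nr4a1, Klf2, Klf4 and Klf6. Of 9 heat shock genes tested in each split, Dnajb1 alone passed, in 4 splits, and the list's median log2 fold change lay between -0.07 and 0.06. The HSC identity list had 0 of 25 calls in each of these 5 splits, with medians between 0.06 and 0.13. The S phase and G2/M lists also had 0 calls. The G2/M list, with 7 or 8 genes tested, had medians of -0.74, -0.83, -0.86, -1.27 and -0.39 in the splits on Egr1, Nr4a1, Klf2, Klf4 and Klf6, with 0, 2, 0, 1 and 4 genes positive. Its 17 genes together summed to 398 ± 226 CPM, from 132 to 601 CPM by library, and its highest gene had 79.2 CPM. Whether a few cells set the G2/M medians was not tested. The S phase list had medians of -0.02, -0.20, -0.02, -0.43 and -0.69 in the same order, against -0.01, -0.09, -0.00, -0.12 and 0.00 over all genes. Members of the wider Egr, Nr4a and Klf family had 0 calls in each split, with medians of 0.24, 0.60, 1.17, 0.19 and 0.73 for Egr1, Nr4a1, Klf2, Klf4 and Klf6. Among them Klf10 had 345 CPM in cells high in Klf6 and 183 CPM in cells low in Klf6 (log2 0.93, edgeR adjusted p = 0.0761), and Nr4a2, another receptor of its family, had 49.5 CPM in cells with Nr4a1 and 15.4 CPM in cells without (log2 1.98, edgeR adjusted p = 0.999).

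Matching high and low cells in number inside each run of 8 left fewer calls, with fewer cells. Of the genes called above, 10 still passed for Klf2 (86 cells a class), 8 for Klf6 (80 cells), 4 for Nr4a1 (67 cells), 1 for Egr1 (87 cells) and 0 for Klf4 (67 cells), and no further gene did. Egr1 and Klf6 were still called in the Klf2 split: Egr1 had 702 CPM in high and 280 CPM in low cells (log2 1.40, edgeR adjusted p = 0.0290), and Klf6 had 1584 and 612 CPM (log2 1.34, edgeR adjusted p = 0.0104). Egr1 was also called in the Klf6 split, with 658 CPM in high and 224 CPM in low cells (log2 1.55, edgeR adjusted p = 0.00945). Among the pairs that lost their call, some fitted differences stayed about as large: the log2 fold change of Klf4 was 2.59 in the Klf6 split (2.5 before matching; edgeR adjusted p = 0.115 matched), 2.49 in the Klf2 split (2.60 before; 0.0607 matched) and 2.01 in the Egr1 split (2.25 before; 0.225 matched). Others were smaller: Klf2 in the Nr4a1 split was 0.30 (1.19 before; edgeR adjusted p = 0.998 matched) and Klf6 in the Nr4a1 split 0.53 (1.07 before; 0.922 matched). Fos had the smallest adjusted p of the called genes in each of the 4 splits with calls, with 6278 CPM in cells high in Klf6 and 2999.8 CPM in cells low in it.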

How the data were processed

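The deposited table holds raw whole-number counts per gene and cell with no normalization; per the submitters' processing notes the tools behind them were HTSeq 0.9.1, HISAT2 2.1.0 and Trimmomatic 0.36, with build GRCm38. The sources used here do not state any collapsing of reads into molecules; 14.1% of nonzero values are 1 and their median is 18, so intervals cover counting error only. Cells under 10000 counts or 1000 genes were left out. Cells were thinned to 30000 counts (seed 1), leaving out 16, and summed per library and class. edgeR 4.0.16 (R 4.3.3; TMM, filterByExpr, glmQLFit) tested the sums with library as a block, at an adjusted p of 0.05; both classes of a block come from the same library. DESeq2 1.42.0 was an alternative. The test was checked on simulated counts. Correlations, shares and figures used Python 3.11.15, scipy 1.17.1 and matplotlib 3.10.9.

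Genes named beyond the members were, for each member, the 5 most and 3 least correlated genes, and, for each split, the 6 largest changes in each direction that held in all 4 libraries, plus called genes of the lists; Apoe, Dnajb9, Klf10, Nr4a2 and the remaining called genes were added after their values were seen. Car1 was named under the rule for splits although library 2 had 0 CPM of it in both Cd27 classes. The members and lists were chosen with earlier results of these data known. Alternatives were no filter, no thinning, no block, a stricter cut between classes, a mitochondrial limit of 20% (which removed no cell) and each library left out; leaving out the 15 cells and matching inside runs were chosen after seeing the data. Doublets were not called. Some genes that the naming rule selects are not reported here. Protein sequences were not used here.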

Additional observations from a re-analysis of the deposited data

Results flagged for a closer look

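Across 64 values taken per library, 5 had 1 library far from the other 3; with 4 libraries a gap of this size arises by chance in a few of so many comparisons. The Egr2 level of 2.48 CPM and the Egr2 share of 1.41% of cells in library 3 both come from its 1 positive cell, against 0 in the other libraries. The rank correlation of Nr4a1 with Fos was 0.17 in library 4, below the 0.37 to 0.40 of the others. The difference of Klf6 between cells high and low in Egr1 was 0.51 (log2) in library 4, with 1246 CPM in high and 872 CPM in low cells, smaller than in the other libraries. The difference of Klf4 between cells high and low in Klf2 was 4.34 (log2) in library 2, with 265 CPM in high and 11.2 CPM in low cells, larger than in the others.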

How the results depend on the processing

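In the order Cd27, Egr1, Nr4a1, Klf2, Klf4 and Klf6, the splits called 7, 16, 18, 19, 6 and 23 genes. DESeq2 called 35, 28, 29, 30, 21 and 42, and no filter on low counts gave 38, 30, 28, 41, 14 and 46. Without thinning the Cd27, Nr4a1 and Klf4 splits gave 0, 10 and 3. Matching inside runs gave 0, 1, 4, 10, 0 and 8. Leaving out each library in turn gave 3 to 14, 10 to 14, 12 to 22, 12 to 23, 0 to 11 and 19 to 25; the libraries behind changes of over 1.5 times are named with the results. Of members called by Cd27, 1 as reported, DESeq2 and no filter gave 2 (Klf6 and Klf2), no thinning and matching 0, and leaving out libraries 0 to 2 (0 without library 1, 2 without library 4). Of 13 ordered member pairs called, 3 remained called when matched, and 8 to 15 with a library left out (8 without library 1). Matched log2 fold changes of some lost pairs are given with the results. The rest were, in the Egr1 split, Klf2 at 1.01 (1.50 before) and Klf6 at 0.72 (1.06 before). In the Klf4 split Klf2 was at 0.72 (1.22 before) and Klf6 at 0.58 (0.93 before). In the Klf6 split Klf2 was at 1.68 (2.05 before). With no library block the splits gave 5, 14, 15, 22, 5 and 24 genes and 13 pairs.

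Klf4 between cells with and without Cd27 ranged from -1.35 to 0.10 (log2) as libraries were left out, positive without library 2, and Nr4a1 between cells with and without Cd27 turned to 0.64 when matched. Klf4 between cells high and low in Nr4a1 turned to -0.0175 without thinning and -1.51 when matched, and ranged from -0.0775 (without library 1) to 0.81 as libraries were left out. None of these passed, and the cause was not tested. Other results for single genes were the same in 946 cases, lost their call in 141, gained one in 15 and moved in 11. Many of the 946 could not have differed, so that count does not measure stability. The mitochondrial limit removed no cell and repeats the reported values. Levels, shares and rho count as moved only beyond the SD over libraries, which leaving out a library cannot reach. Differences that were never called also count as the same. Thinning to 30000 counts limits rare transcripts: the 13 counts of Egr2 and 127 of Egr3 allow no comparison.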
